A study of Mus musculus with 2 samples.

Results

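The miR-23/27/24 clusters are a pair of short runs of microRNA genes in the mouse genome, Mir23a, Mir27a and Mir24-2 on chromosome 8 and their paralogues Mir23b, Mir27b and Mir24-1 on chromosome 13. The 6 genes were chosen by name, and a gene was measured where its Ensembl identifier had a row in both count tables. This held for 5 of the 6 genes, among 1973 genes in all. Mir24-1 was not analysed here as a gene, so the chromosome 13 cluster was measured through Mir23b and Mir27b alone. The study sequenced small RNA from the intestine of B6NCrl mouse embryos at 14.5 days of development, in 2 libraries that the labels call biological replicates 1 and 2. Both belong to a single group with no named treatment, genotype or control, so the comparisons below are between genes, between loci and between these libraries. Per the labels each sample is 1 intestine from 1 pup, yet the sex is entered as pooled, and which of these holds was not settled. Replicate 1 was collected 2 days after replicate 2 (days 17 and 15 of the month), so collection day and replicate cannot be told apart.

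MicroRNAs are cut from hairpin precursors and repress messenger RNAs that pair with their seed, bases 2 to 8 from the 5′ end. The 3 neighbours of each miR-23/27/24 cluster are thought to be made from a shared primary transcript, and the loci are paralogous copies found across vertebrates. Members are known from blood vessel growth, where miR-23 and miR-27 act in endothelial cells, from muscle and fat cell differentiation, where miR-27 restrains fat cell formation, and from T cells, whose effector responses the clusters limit. Whole intestine was sequenced, so fewer cells of a type and less RNA per cell cannot be told apart.

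The mature sequences show which miR-27 and miR-24 members can be told apart by sequencing. They were taken from RefSeq (GRCm38.p6), with U for T and the seed in capitals. No miR-23b-3p is entered there, so the Mir23 pair is compared by its hairpins below. The miR-23a product carries the seed UCACAUU, and miR-27a and miR-27b carry UCACAGU, which matches the miR-23a seed at 6 of 7 bases. The miR-24 seed GGCUCAG matches it at 0 of 7. Both miR-27 products have 21 bases and differ by the substitution C19U, counted from the 5′ end with the miR-27a base first. One miR-24-3p sequence is listed at both loci.
miR-23a-3p (Mir23a, chr8:84208563-84208583, plus strand): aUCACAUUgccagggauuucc
miR-27a-3p (Mir27a, chr8:84208727-84208747, plus strand): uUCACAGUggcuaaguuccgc
miR-27b-3p (Mir27b, chr13:63300760-63300780, plus strand): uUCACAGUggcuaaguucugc
miR-24-3p (Mir24-2, chr8:84208875-84208896, and Mir24-1, chr13:63301251-63301272, plus strand): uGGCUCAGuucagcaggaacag

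The opposite arms of the same hairpins diverged more. The miR-27a-5p and miR-27b-5p sequences match at 14 of 22 positions, with the first difference, G3A, inside the seed. For miR-24 the 5p arms of the loci have 22 and 23 bases and the same seed, so that seed is shared even though the arms differ further along. Each count in the tables covers a whole hairpin gene, so 5p and 3p products cannot be told apart in the values below.
miR-27a-5p (Mir27a): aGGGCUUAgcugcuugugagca
miR-27b-5p (Mir27b): aGAGCUUAgcugauuggugaac
miR-24-2-5p (Mir24-2): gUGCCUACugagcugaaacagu
miR-24-1-5p (Mir24-1): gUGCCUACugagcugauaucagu

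The hairpins are shown with the longest stretch that each shares with its paralogue in capitals, since a read confined to that stretch aligns to both loci. The stretch is 20 bases for the Mir23 pair, 20 for the Mir27 pair and 28 for the Mir24 pair. In Mir23a, Mir27a and Mir27b it covers bases 1 to 18 of the 21-base 3p product and leaves the last bases outside. In both Mir24 hairpins it covers all 22 bases of miR-24-3p.
Mir23a (chr8:84208518-84208592): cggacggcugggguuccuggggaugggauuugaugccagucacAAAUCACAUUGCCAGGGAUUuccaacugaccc
Mir23b (chr13:63300484-63300557): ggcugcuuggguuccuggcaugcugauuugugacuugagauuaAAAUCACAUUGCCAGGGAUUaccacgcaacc
Mir27a (chr8:84208672-84208758): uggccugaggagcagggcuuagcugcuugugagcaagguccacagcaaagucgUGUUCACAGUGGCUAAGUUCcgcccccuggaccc
Mir27b (chr13:63300712-63300784): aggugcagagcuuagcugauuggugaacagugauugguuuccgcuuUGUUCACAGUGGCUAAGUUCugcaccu
Mir24-2 (chr8:84208815-84208921): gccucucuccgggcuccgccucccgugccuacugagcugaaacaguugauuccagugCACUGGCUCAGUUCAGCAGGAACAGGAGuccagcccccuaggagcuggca
Mir24-1 (chr13:63301208-63301275): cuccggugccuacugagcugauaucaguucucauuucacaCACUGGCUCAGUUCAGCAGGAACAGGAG

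All 6 hairpins lie on the plus strand of their chromosome. In the GENCODE M21 annotation of GRCm38 the chromosome 8 cluster spans 404 bases, with gaps of 79 and 56 bases between its hairpins. It lies outside protein-coding genes, and the nearest is Zswim4, 1757 bases away on the minus strand. The last 2 bases of Mir24-2 overlap the start of the long non-coding RNA Gm26532. The chromosome 13 cluster spans 792 bases, with gaps of 154 and 423 bases, inside the protein-coding gene 2010111I01Rik on the same strand and the Fanconi anaemia gene Fancc on the opposite strand. Mir23b met no exon of the 28 annotated transcripts of 2010111I01Rik and is intronic in the 9 that span it. Mir27b met an exon of 1 of these transcripts, and Mir24-1 an exon of 4. A further microRNA gene lies antisense to each Mir24 hairpin, Mir3074-2 on chromosome 8 and Mir3074-1 on chromosome 13.

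**Figure D1:**
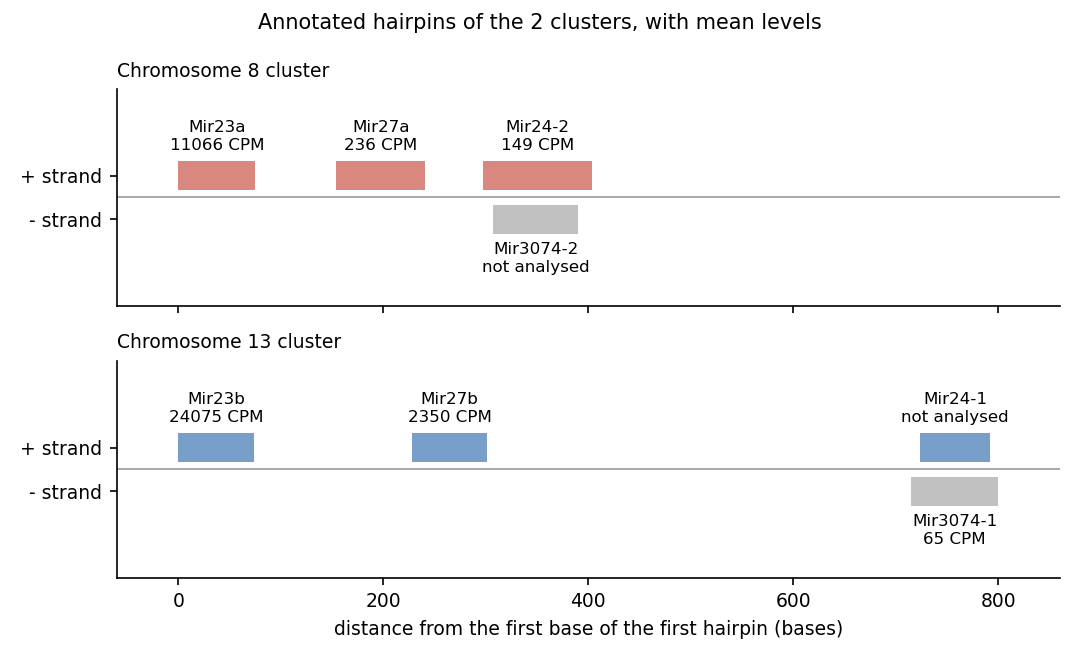
Annotated hairpins of the chromosome 8 cluster (red, top) and the chromosome 13 cluster (blue, bottom), drawn to scale by distance in bases from the first base of the first hairpin, with antisense hairpins in grey and the mean level of 2 libraries in CPM where the gene was measured. The Mir23 hairpin comes first at both loci and has the highest level of the genes measured there. The last hairpin of the chromosome 13 cluster stands 423 bases from its neighbour.

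Counts on the gene's strand summed to 15090126 in replicate 1 and 3903472 in replicate 2 over all genes. Levels are counts per 1000000 of that sum (CPM), given as mean ± SD of 2 libraries. With 3 counts as the limit, a count of 0 allows up to 0.199 CPM in the first library and 0.769 CPM in the second. Intervals and limits cover counting error only, since PCR copies count as reads. Inserts were under 30 bases, about the length of 1 mature product, so counts were not divided by hairpin length, and ligation favours some sequences, so levels of different genes compare reads and not molecules. Reads with several alignments were tabulated apart from the genes and are taken here to have entered no gene. They were 26.5% and 26.6% of all reads tabulated. Markers for the tissue were listed with earlier results of these data known. Among them, smooth muscle genes (Mir143 and Mir145a) gave 17.2% and 15.0% of the counts in replicates 1 and 2. Intestinal epithelial genes (Mir192, Mir194-1, Mir194-2, Mir215) gave 0.898% and 1.14%.

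The miR-23 genes had the highest counts among the measured genes of both clusters. Mir23b (ENSMUSG00000065599.1), known like Mir23a from vessel growth, had 340208 counts in replicate 1 and 99951 in replicate 2. These were 22545 CPM (Wilson 95% interval 22470 to 22620) and 25606 CPM (25449 to 25763), or 24075 ± 2164 CPM (n = 2). Its rank by mean level was 10 among the 363 genes detected, meaning those with at least 10 counts in both libraries. Mir23a (ENSMUSG00000065611.1) had 160490 and 44877 counts, or 10635 CPM (10584 to 10687) and 11497 CPM (11391 to 11603). Its mean of 11066 ± 609 CPM gave rank 20. Both libraries placed Mir23b above Mir23a, and the ranges of the genes did not overlap.

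The miR-27 genes were lower, and far lower on chromosome 8 than on chromosome 13. Mir27b (ENSMUSG00000065475.1) had 37891 and 8544 counts, which were 2511 CPM (2486 to 2536) in replicate 1 and 2189 CPM (2143 to 2236) in replicate 2. Its mean was 2350 ± 228 CPM, at rank 68. Mir27a (ENSMUSG00000065444.1) had 3739 and 873 counts, or 248 CPM (240 to 256) and 224 CPM (209 to 239). Its mean of 236 ± 17.1 CPM gave rank 156. Every library value of Mir27b exceeded every value of Mir27a, and both genes lay below the miR-23 genes in each library.

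Mir24-2 (ENSMUSG00000065541.1), the measured gene of the Mir24 pair, had the lowest counts of the members. It had 2391 counts in replicate 1 and 548 in replicate 2, which were 158 CPM (152 to 165) and 140 CPM (129 to 153). Its mean was 149 ± 12.8 CPM, at rank 173. The order Mir23b, Mir23a, Mir27b, Mir27a, Mir24-2 was the same in both libraries, and no pair of neighbours in this order had overlapping ranges.

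**Figure D2:**
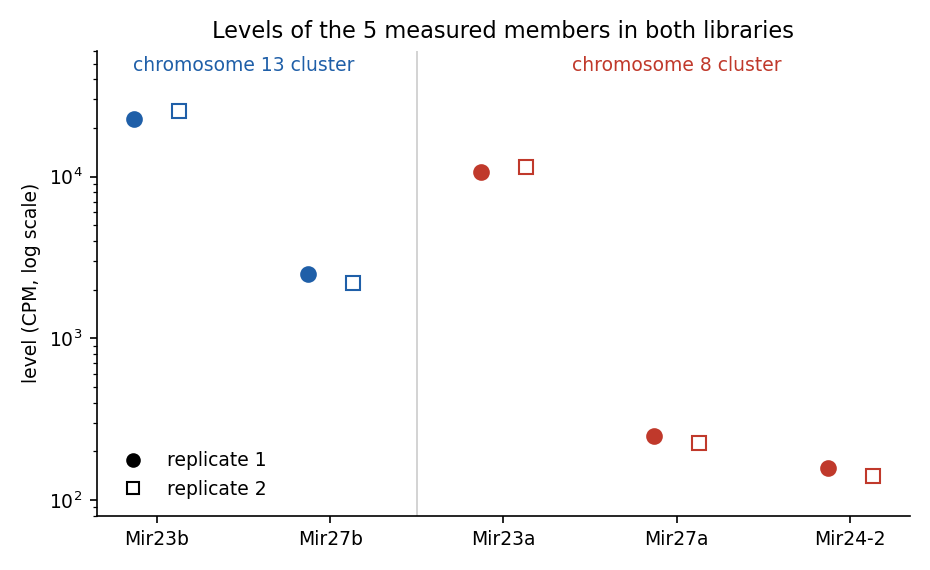
Level of each measured member in CPM on a log axis, with filled circles for replicate 1, open squares for replicate 2 and error bars for the Wilson 95% counting interval, many of them smaller than the symbol. Mir23b leads at 22545 and 25606 CPM, and Mir24-2 is lowest at 158 and 140 CPM.

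Members stood beside genes of unrelated families in level. Directly above Mir23b was Mir130a (28698 ± 169 CPM) and directly below it Mir126a (23826 ± 493 CPM), a gene of endothelial cells whose values of 23478 and 24174 CPM fell inside the range of Mir23b. Mir23a lay between the epithelial gene Mir200c (12141 ± 2778 CPM) and the mesenchymal gene Mir214 (9835 ± 1081 CPM). Mir27b lay between Mir361 (2370 ± 44.6 CPM) and Mir425 (2271 ± 151 CPM), and its range overlapped those of both. Mir27a lay between Mir485 (237 ± 7.16 CPM) and Mir32 (235 ± 14.3 CPM), and Mir24-2 between Mir679 (153 ± 3.03 CPM) and Mir7-1 (146 ± 37.1 CPM), again with overlapping ranges. Likeness here is of mean level over 2 libraries, which allow no measure of a shared pattern.

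**Figure D3:**
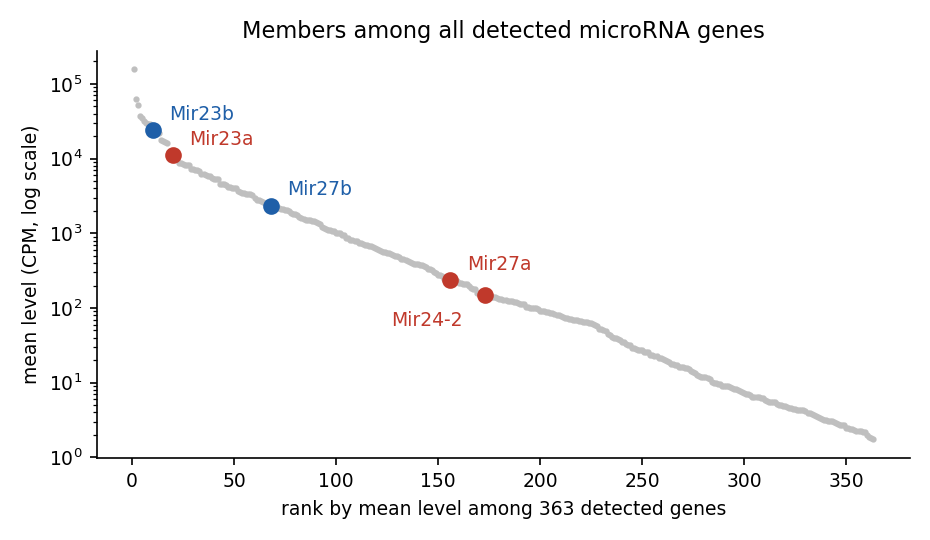
Mean level in CPM (log axis) against rank for the 363 detected genes in grey, with chromosome 13 members in blue and chromosome 8 members in red. The miR-23 genes sit at ranks 10 and 20, Mir27b at 68, and Mir27a and Mir24-2 in the middle of the range at 156 and 173.

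Outside the clusters, no gene of the RefSeq table was listed with a seed of the miR-23 or miR-27 products entered there, on either arm. For Mir23b only miR-23b-5p is entered, so miR-23b-3p was not part of this search. For miR-24-3p, 4 genes listed with the seed GGCUCAG (Mir5124b, Mir6369, Mir6410 and Mir6413) had 0 counts in both libraries. Summed over loci, the miR-23 genes reached 33180 CPM in replicate 1 and 37102 CPM in replicate 2 (35141 ± 2773 CPM). The miR-27 genes reached 2759 and 2412 CPM (2586 ± 245 CPM). The miR-23 sum exceeded the miR-27 sum 12.0-fold in replicate 1 (95% interval 11.9 to 12.1) and 15.4-fold in replicate 2 (15.1 to 15.7).

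The chromosome 13 cluster gave more than double the counts of the chromosome 8 cluster, although 1 of its genes was not analysed. The chromosome 13 genes held 2.51% of the gene counts in replicate 1 (Wilson 95% interval 2.50 to 2.51%) and 2.78% in replicate 2 (2.76 to 2.80%). The chromosome 8 genes held 1.10% (1.10 to 1.11%) and 1.19% (1.18 to 1.20%). The ratio of chromosome 13 to chromosome 8 was 2.27-fold in replicate 1 (exact 95% interval 2.26 to 2.28) and 2.34-fold in replicate 2 (2.32 to 2.37). On the log2 scale this was 1.21 ± 0.03 (n = 2), far more than the gap of 0.05 between the libraries. Such a ratio is taken within a library and needs no scaling between them. An exact sign-flip test over 2 libraries cannot go below 0.5 (two-sided), so no test was run on this or the following ratios.

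The bias toward chromosome 13 differed between the paralogue pairs. Mir23b exceeded Mir23a 2.12-fold in replicate 1 (2.11 to 2.13) and 2.23-fold in replicate 2 (2.20 to 2.25), a log2 ratio of 1.12 ± 0.05. Mir27b exceeded Mir27a 10.1-fold (9.80 to 10.5) and 9.79-fold (9.13 to 10.5), a log2 ratio of 3.32 ± 0.04. Thus the loci were about 2-fold apart in miR-23 and 10-fold apart in miR-27, and the pairs did so in both libraries. The counting intervals of the Mir27 ratio overlapped between the libraries, and those of the Mir23 ratio did not.

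Within each cluster the hairpins gave very unequal counts. Reads with several alignments, among them those of miR-24-3p, are taken to have entered no gene and so to be left out of these shares and ratios. On chromosome 8, Mir23a held 96.3% of the cluster's counts in replicate 1 and 96.9% in replicate 2, Mir27a 2.24% and 1.89%, and Mir24-2 1.44% and 1.18%. Mir23a exceeded Mir27a 42.9-fold in replicate 1 (41.6 to 44.3) and 51.4-fold in replicate 2 (48.1 to 55.0). Mir27a exceeded Mir24-2 by much less, 1.56-fold (1.49 to 1.65) and 1.59-fold (1.43 to 1.78). On chromosome 13, Mir23b held 90.0% and 92.1% of the counts of the measured genes and Mir27b the rest. Mir23b exceeded Mir27b 8.98-fold (8.88 to 9.07) in replicate 1 and 11.7-fold (11.4 to 12.0) in replicate 2. The predominance of miR-23 over miR-27 was therefore larger at the chromosome 8 locus in each library, with log2 ratios of 5.42 and 5.68 against 3.17 and 3.55.

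Unequal counts among neighbouring hairpins were common in these libraries. In 43 loci with at least 2 detected genes on 1 strand within 10 kb of the next, the highest member exceeded the lowest by a median of 15.1-fold in mean CPM. The chromosome 8 cluster, at 74.1-fold, ranked 12 of the 43. The chromosome 13 cluster, at 10.2-fold over its 2 measured genes, ranked 26. These ranks are a description, since the loci hold different numbers of genes. Reads with several alignments are taken to have entered no gene, so a low gene may be one whose product is shared with another locus. The lowest gene of the chromosome 8 cluster, Mir24-2, shares all 22 bases of miR-24-3p with Mir24-1. How far such reads shaped these ranges was not tested.

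**Figure D4:**
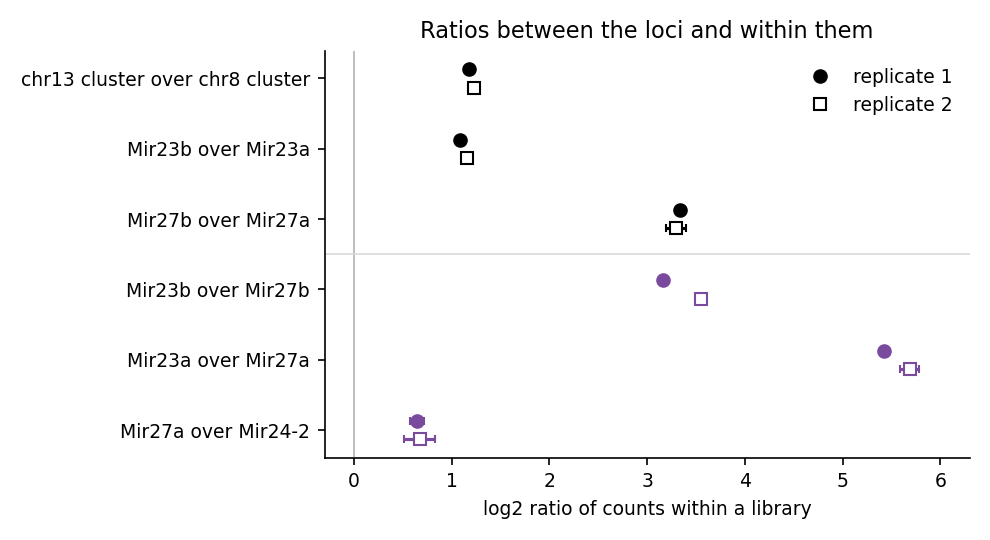
Log2 ratios of counts within each library, with filled circles for replicate 1, open squares for replicate 2 and bars for exact 95% counting intervals; black ratios compare the loci and purple ratios compare neighbours in 1 locus. The ratios between loci lie close together in the libraries (gaps of 0.05, 0.07 and -0.05), while those of miR-23 to miR-27 moved by 0.38 on chromosome 13 and 0.26 on chromosome 8.

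The miR-24 values rest on a hairpin whose main shared stretch cannot be placed at 1 locus. Because miR-24-3p is the same at Mir24-1 and Mir24-2, a read of it aligns to both and is taken to have entered neither gene. On that reading the 149 CPM of Mir24-2 are a count of reads that aligned there alone and not of miR-24 as a whole. In the same way, a read of a miR-23 or miR-27 3p product that ends before base 19 has identical letters at both loci. How mismatches were treated was not given in the sources used here, and read lengths were not analysed here. Among 334 detected genes with a listed mature sequence, the 49 that share one with another place had a median of 64.9 CPM. The 285 others had a median of 160 CPM. At least 1000 CPM was reached by 12.2% of the first group and 31.9% of the second, and Mir24-2 ranked 15 of the 49. The difference between these groups was not tested.

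Counts on the opposite strand gave a further reading at the chromosome 13 locus. The row of Mir3074-1 (ENSMUSG00000092741.1; chr13:63301199-63301283, minus strand), which lies over Mir24-1, had 928 counts on its own strand in replicate 1 and 267 in replicate 2. These were 61.5 and 68.4 CPM. It also had 713 and 189 counts on the plus strand, the strand of Mir24-1, or 47.2 and 48.4 CPM (47.8 ± 0.83). These made up 43.4% and 41.4% of the counts of that row. Mir24-2 exceeded them 3.35-fold in replicate 1 (3.08 to 3.65) and 2.90-fold in replicate 2 (2.45 to 3.44). Whether those counts are reads of the Mir24-1 hairpin was not tested. The identifiers of Mir3074-1, Mir23b and Mir27b carry an older version in the tables than in M21, so the intervals used for counting may differ from those given.

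At the chromosome 8 locus the antisense strand had few counts. Mir24-2 had 3 counts on its opposite strand in each library, 0.125% and 0.544% of its counts. Mir3074-1 had 309 times that number in replicate 1 (106 to 1503) and 89.0 times in replicate 2 (30.1 to 434), intervals that are wide because 3 counts stand below. The product miR-3074-5p is also listed at both loci, so its reads could align to either. Mir23a, Mir27a, Mir23b and Mir27b each had 0 counts on the opposite strand in both libraries, under the limits of 0.199 and 0.769 CPM.

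Between the libraries, the miR-23 genes stood higher in replicate 2 at both loci, while the miR-27 genes and Mir24-2 stood lower. Each gene's counts were compared with the ratio of the library totals by an exact, two-sided binomial test whose p-values were adjusted by Benjamini and Hochberg's method across all 363 detected genes. It compares these libraries and no conditions. Mir23b was 13.6% higher in replicate 2 (log2 0.18, 95% interval 0.17 to 0.19, adjusted p = 2.74e-266). Mir23a was 8.10% higher (log2 0.11, 0.10 to 0.13, adjusted p = 1.89e-46). With edgeR TMM scaling and with DESeq2 size factors the difference of Mir23b was smaller, at 0.10 and 0.09, and that of Mir23a shrank to 0.03 and 0.02 on the log2 scale (adjusted p = 0.000393 and 0.0300, exact binomial test).

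Mir27b was lower in replicate 2, with a log2 difference of -0.20 (-0.23 to -0.16, adjusted p = 2.76e-30, exact binomial test). That of Mir27a was -0.15 (-0.26 to -0.04, adjusted p = 0.0165, exact test). That of Mir24-2 was -0.17 (-0.31 to -0.04, adjusted p = 0.0266, exact test). Without the filter on low counts the adjusted p of Mir24-2 was 0.0526. With TMM or DESeq2 scaling the differences of these 3 genes were larger, between -0.23 and -0.29.

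In all, 5 of 5 measured members passed the test, 2 higher and 3 lower, against 43.8% of all detected genes (29.8% higher and 14.0% lower). The test reads counting error alone and calls most abundant genes. Of the 173 detected genes with at least the mean level of Mir24-2, 72.3% were called, and of the 68 with at least that of Mir27b, 89.7%. The members' differences were of ordinary size. The median absolute log2 difference over the 363 genes was 0.15, and between 41.0% and 60.6% of genes differed more than a given member. Of all calls 67.9% were higher in replicate 2 as reported, 40.8% with TMM and 37.5% with DESeq2 size factors, while the directions of the 5 members stayed the same.

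**Figure D5:**
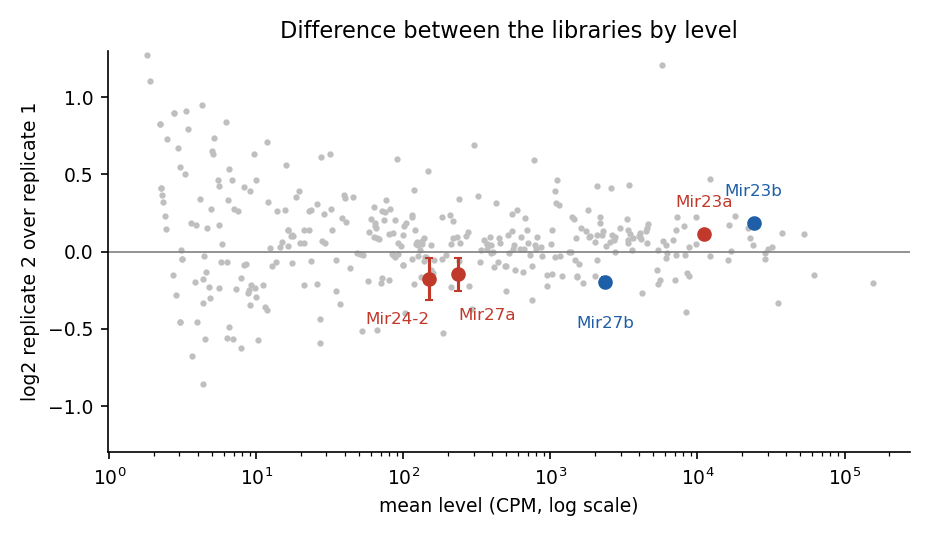
Log2 of replicate 2 over replicate 1 against mean level in CPM (log axis), with 358 detected genes in grey or colour inside the plotted range of ±1.3 and 5 outside it; bars are exact 95% counting intervals of the members. Both miR-23 genes lie above 0 (0.11 and 0.18), and Mir27a, Mir27b and Mir24-2 lie below it (-0.15, -0.20 and -0.17).

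Paralogues on different chromosomes thus differed between the libraries in the same direction, while the Mir23 and Mir27 genes of each cluster differed in opposite directions. The log2 ratio of Mir23b to Mir27b was 3.17 in replicate 1 (3.15 to 3.18) and 3.55 in replicate 2 (3.52 to 3.58). That of Mir23a to Mir27a was 5.42 (5.38 to 5.47) and 5.68 (5.59 to 5.78). Neither pair of intervals overlapped, and neither ratio depends on the scaling of the libraries. The ratio of Mir27a to Mir24-2 hardly moved, from 0.65 (0.57 to 0.72) to 0.67 (0.52 to 0.83). Over 110 pairs of adjacent detected genes within the loci above, 39 of them in the 2 largest loci, the median absolute gap between libraries was 0.16. A larger gap than the 0.38 of Mir23b and Mir27b was found in 13.6% of pairs, and than the 0.26 of Mir23a and Mir27a in 30.0%. These ratios were computed after the members' values had been seen.

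Marker microRNAs of several cell types also differed between the libraries. Over all 363 detected genes, 29.8% were called higher in replicate 2 and 14.0% lower, and the test calls most abundant genes. With TMM 58 genes were called higher and 84 lower, and with DESeq2 size factors 54 and 90. Intestinal epithelial genes were called higher in replicate 2 in 4 of 4 cases (median log2 difference 0.42, against 0.06 over all detected genes), and miR-200 genes of epithelium in 5 of 5 (median 0.32), with summed shares of 3.50% and 4.29%. The endothelial gene Mir126a gave 2.35% and 2.42% of the counts and was called higher (log2 0.04), but it was called lower with TMM (-0.04) and with DESeq2 size factors (-0.05). Of the smooth muscle genes 1 of 2 was called lower (median -0.09), and 2 of 2 under either other scaling (medians -0.18 and -0.19), and of the mesenchymal genes 1 of 4 was called higher and 1 lower (median 0.09, with TMM 0.004 and with DESeq2 -0.006; sums 0.971% and 1.12%). The 4 leukocyte genes measured, of 6 listed, gave 448 and 557 CPM, and 2 of the 3 detected were called higher. Mir142b had 0 counts on its own strand but 8096 and 2730 on the opposite strand (537 and 699 CPM), more than that sum. Erythroid genes gave 258 and 409 CPM, and 1 of 3 was called higher (median 0.69, with TMM 0.61 and with DESeq2 0.60). The part of these markers in the members' differences was not tested.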

How the data were processed

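Small RNA counts of 2 libraries from 1 group were used. Per the file headers and accompanying notes, the alignments are to mm10 and the gene models are GENCODE M4; for aligner, trimming and counting program, nothing is given in the sources used here. The deposited tables hold whole-number counts per gene in 3 columns, read from the values as both strands, sense and antisense, since the first equals the other two summed in 100% of rows. The 4 rows that name no gene were left out of totals. In replicates 1 and 2, 12.4% and 13.8% of reads were unaligned and 2.20% and 2.10% met no gene.

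Counts on the gene's strand over 1973 genes gave CPM. Of their identifiers, 1894 matched GENCODE M21 (GRCm38), 1815 with the same version. RefSeq (GRCm38.p6) held hairpins of all 6 members and 11 mature entries. Tests were exact binomial (scipy 1.17.1) with Benjamini-Hochberg adjustment (statsmodels 0.14.6) at 0.05. They were also run on simulated counts that held counting error alone, so that check does not cover variation beyond it. Alternative scalings used edgeR 4.0.16 and DESeq2 1.42.0. No quasi-likelihood test was possible with 1 library a side. Named genes were the members, genes of the same seed, genes antisense to a member, annotated genes over a member, and the genes directly above and below each member in level. Members and lists were chosen with earlier results of these data known.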

Additional observations from a re-analysis of the deposited data

Results flagged for a closer look

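Counts on the strand opposite Mir3074-1, which is the strand of Mir24-1, were not part of the main measurement. They averaged 47.8 CPM (713 counts in replicate 1 and 189 in replicate 2), above the level that a count of 0 allows in either library (0.199 and 0.769 CPM). They came from the interval that holds the Mir24-1 hairpin. Whether they are reads of that hairpin was not tested.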

How the results depend on the processing

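The chromosome 13 to chromosome 8 ratio (log2 1.21) lay between 1.18 and 1.23 when either library was left out, and was 1.21 with both strands, 1.22 without Mir24-2 and 1.21 with the strand opposite Mir3074-1 added, a setting chosen after seeing the data. Other denominators moved levels by construction. With all aligned reads as the denominator the summed share of the members was 2.46% in place of 3.79%, and the levels were 15639 CPM for Mir23b, 7189 CPM for Mir23a, 1528 CPM for Mir27b, 153 CPM for Mir27a and 97.1 CPM for Mir24-2. With the total taken without Mir143 they were 4.49%, 28541, 13123, 2791, 280 and 177 CPM in the same order. The share was 3.61% without replicate 2 and 3.97% without replicate 1. All 5 members were called under 4 of 5 alternatives. Without the filter on low counts 4 were called, and Mir24-2, at a log2 difference of -0.17, had an adjusted p of 0.0526, since more genes were tested; over its alternatives that p ran from 0.000244 to 0.0526. No member's direction and no ratio reversed; Mir126a, a marker, changed sign with TMM (-0.04) and DESeq2 size factors (-0.05), a check added after seeing the data. No paired analysis was possible because the design holds 1 group. Depth limits Mir24-2 and Mir27a most, with 548 and 873 counts in replicate 2.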
